A study of Homo sapiens with 8 samples.

Results

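The genes described here are 10 protein-coding genes that carried peaks of the heterochromatin protein HP1a in wild-type MCF10A cells and none when its paralog HP1b was knocked down. They are GALNT10, EXT1, FGGY, VAT1L, SPIDR, TENT5D, TASP1, MARCHF1, FARP1 and CYB5R4. They were chosen from the HP1a peak lists themselves: a peak in both wild-type libraries, and no peak in either HP1b knockdown library, in the gene or within 1 kb of it. Of 19974 protein-coding genes on chromosomes 1 to 22 and X, 7945 had HP1a peaks in both wild-type libraries and 3738 of those had none in the knockdown, and these 10 are named examples of that larger set. All 10 met the criterion when it was applied again to the deposited lists.

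MCF10A is an established human cell line, of epithelial origin from breast and not tumorigenic. ChIP-seq was done in 4 groups of 2 libraries: HP1a in cells labelled HP1B knock-down, HP1a in untreated wild-type cells (WT), HP1b in cells labelled HP1A knock-down, and HP1b in untreated wild-type cells. The labels give neither how the knockdowns were made nor how far the proteins fell, and they do not say that libraries of a group came from separate cultures, so the spread between them may be technical. The HP1a lists held 19638 and 19092 peaks in HP1b knockdown, against 134058 and 115564 in wild type, and the HP1b lists held 159536 and 225991 peaks in HP1a knockdown, against 239563 and 240090 in wild type. No read counts are in the lists, so depth is unknown, and a gene without a listed peak is listed at 0, which is not an absence of the protein. The values of one peak are its width and its fold, the enrichment over local background that the authors' peak caller gave.

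HP1 proteins are small adaptors of silent chromatin. Their chromodomain binds the methylated tail of histone H3, and their chromoshadow domain forms dimers and holds partner proteins. HP1a (gene CBX5) and HP1b (gene CBX1) share this layout and can pair with each other, so the binding of one paralog in cells short of the other is a direct question of the design. The 10 genes have unrelated products: enzymes of sugar metabolism and glycosylation (GALNT10, EXT1, FGGY), oxidoreductases and their relatives (CYB5R4, VAT1L), a DNA repair scaffold (SPIDR), an RNA-tailing enzyme (TENT5D), a protease (TASP1), a ubiquitin ligase (MARCHF1) and a FERM-domain protein (FARP1).

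The genes lay on 9 chromosomes and were long, between 107.7 and 859.7 kb, with a median of 315.0 kb against 24.2 kb over all protein-coding genes. Over the 10 genes together, no HP1a peak was listed in either HP1b knockdown library, against 248 and 231 in the wild-type libraries. Those wild-type peaks covered 132.1 and 108.2 kb, or 3.66 and 3.00% of the joint gene length. The direction of this contrast follows from how the genes were chosen, so it is given as a description with no test. Over all genes with HP1a peaks in both wild-type libraries, 47.0% met the same criterion. Among those of 100 kb or more it was 892 of 3197 (27.9%).

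**Figure D1:**
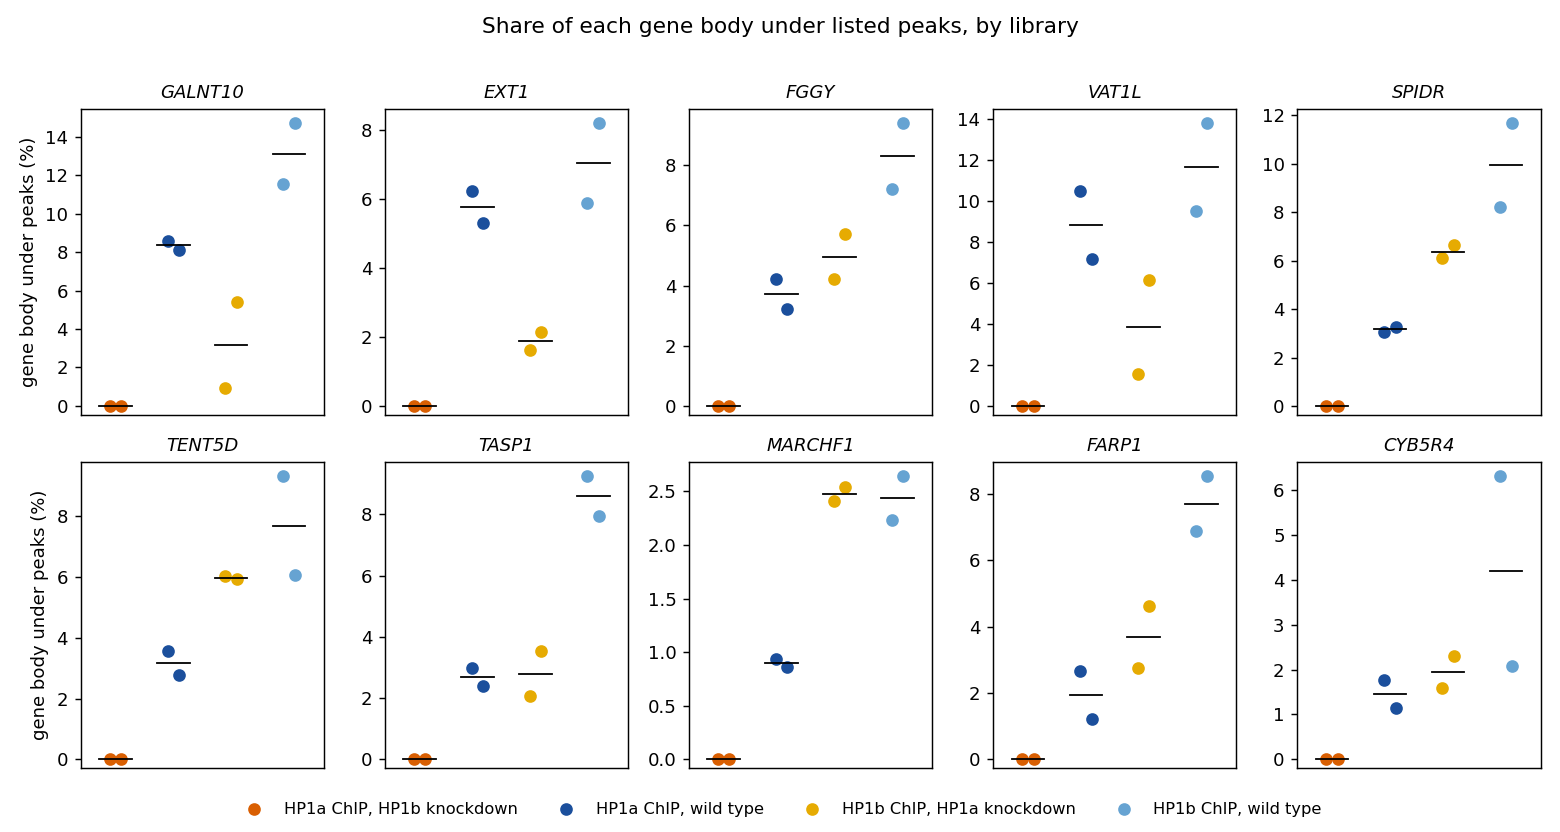
Share of each gene body under listed peaks (%, vertical axis) for the 10 genes; every point is a library and every black line the mean of 2 libraries. In each panel the HP1a points of HP1b knockdown lie at 0, and HP1b peaks were listed in all 4 HP1b libraries, from 0.907% of GALNT10 in HP1a knockdown to 14.7% of GALNT10 in wild type.

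Most genes that met the criterion had few peaks, while 7 of these 10 had many. Among all genes whose fewer-peaked wild-type library held 1 to 2 HP1a peaks, 63.7% were listed at 0 in HP1b knockdown, and with 10 to 19 peaks 13.3% were. With 20 or more, it was 18 of 345 genes, or 5.22%, and 7 of the 18 were among the 10: GALNT10, EXT1, FGGY, SPIDR, TASP1, VAT1L and MARCHF1. With 25 or more it was 7 of 227 genes, of which 6 were among the 10. TENT5D, FARP1 and CYB5R4 had fewer peaks. The 10 were chosen from these same HP1a lists, so their place among genes with many peaks is only a description.

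The 3 genes of sugar chemistry carried between 33 and 35 HP1a peaks in each wild-type library. GALNT10, which encodes a transferase that starts O-linked glycan chains, had no HP1a peak in either HP1b knockdown library, against 34 and 35 in wild type, over 8.58 and 8.11% of the gene (chromosome 5, 154190733 to 154420984). EXT1, which encodes a polymerase of heparan sulfate chains, likewise had none in HP1b knockdown, against 33 and 35 over 6.24 and 5.30% in wild type (chromosome 8, 117794490 to 118111826). FGGY, a carbohydrate kinase gene, had none against 33 and 34 over 4.21 and 3.21% (chromosome 1, 59296378 to 59762730). Wild-type libraries differed from each other by at most 2 peaks at each of these genes.

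VAT1L and CYB5R4 encode proteins of the oxidoreductase type. VAT1L, a relative of the vesicle amine transport gene VAT1, was listed at 0 in HP1b knockdown, against 28 and 25 peaks over 10.5 and 7.17% of the gene in wild type, the highest covered share of the 10 genes in the first wild-type library (chromosome 16, 77788564 to 77980107). CYB5R4, which encodes a fusion of cytochrome b5 and its reductase, was listed at 0 in HP1b knockdown, against 5 peaks in each wild-type library over 1.77 and 1.15% (chromosome 6, 83859689 to 83967423). Its peaks are also those of the annotated readthrough RIPPLY2-CYB5R4, so the gene cannot be told apart from it.

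SPIDR, the scaffold gene of homologous recombination, had no HP1a peak in HP1b knockdown, against 35 and 32 over 3.06 and 3.28% in wild type (chromosome 8, 47260878 to 47736306). TENT5D, a testis-expressed gene for a non-canonical poly(A) polymerase, had none against 6 and 5 peaks over 3.56 and 2.77% (chromosome X, 80335504 to 80445309). Its wild-type peaks had a median fold of 3.78 and 3.52. The median over all HP1a peaks of those wild-type libraries was 3.29 and 3.26.

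TASP1 encodes the threonine protease that cleaves the histone methyltransferase KMT2A. It had no HP1a peak in HP1b knockdown, against 35 and 28 over 2.99 and 2.41% in wild type (chromosome 20, 13104772 to 13638932). Its annotated span holds all 105.5 kb of ISM1 and 64.3 kb of SPTLC3, and 12 and 13 of its wild-type peaks lay in those genes, so 23 and 15 are TASP1's without overlap. MARCHF1, a ligase gene whose product removes MHC class II from the cell surface, had none against 20 and 22 peaks over 0.934 and 0.863% of the longest of the 10 genes (chromosome 4, 163524298 to 164384019). FARP1, which encodes a FERM-domain protein, had none against 19 and 10 peaks over 2.66 and 1.22% (chromosome 13, 98142589 to 98455176), the widest relative gap between wild-type libraries among the 10.

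The HP1a lists ended at the same lowest −log10 q, 1.00, but not at the same −log10 p, and this touches every value of 0. The lowest −log10 p was 3.43 in both HP1b knockdown lists, against 2.75 and 2.80 in wild type. In the 10 genes, 144 of 248 (58.1%) and 137 of 231 (59.3%) wild-type peaks reached the knockdown lists' lowest value, against 77.3 and 75.2% of all peaks of those libraries. Each gene had at least 4 such peaks in each wild-type library. Removing peaks cannot add one to a knockdown list, so the settings below could change only the wild-type listing of the 10. Whether weaker HP1a peaks lie in these genes in HP1b knockdown cannot be read from the lists. With peaks below that value removed from every list, all 10 genes met the criterion. So did 2761 of the 6642 genes that then had a peak in both wild-type libraries (41.6%). With the same number of top peaks taken from every HP1a library all 10 did too, as did 426 of 1956 such genes (21.8%). With −log10 q of at least 2 it was 9 of the 10, because VAT1L then had no peak in the second wild-type library, and 1022 of 1104 such genes (92.6%).

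Shared position was less common than shared listing. Of the wild-type HP1a peaks at the 10 genes, 43 of 248 (17.3%) and 43 of 231 (18.6%) met a peak of the other wild-type library by at least 1 base. Over all protein-coding genes these shares were 16.4 and 20.03%. GALNT10 and EXT1 had 9 such shared regions each, SPIDR 7, TASP1 5, FGGY and VAT1L 4, CYB5R4 and MARCHF1 2, TENT5D 1, and FARP1 0. FARP1 was thus covered in both wild-type libraries, but nowhere at the same bases.

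The strongest peaks of the 2 wild-type libraries also stood at different places. Of 20 strongest peaks, 1 per gene and library, 2 met a peak of the other wild-type library, and the 2 strongest peaks of a gene lay between 1.7995 and 241.1 kb apart. They were narrow, with a median width of 185.5 bases. The highest fold among them, 5.51, belonged to TENT5D in the first library (chrX:80419714-80419914), and the second library had its strongest TENT5D peak, at fold 4.76, 6.0095 kb away (chrX:80425741-80425906). At CYB5R4 the distance was 1.7995 kb, with folds of 4.75 and 4.68 near the end of the gene. At FARP1 folds of 4.54 and 5.02 lay 41.0 kb apart.

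**Figure D2:**
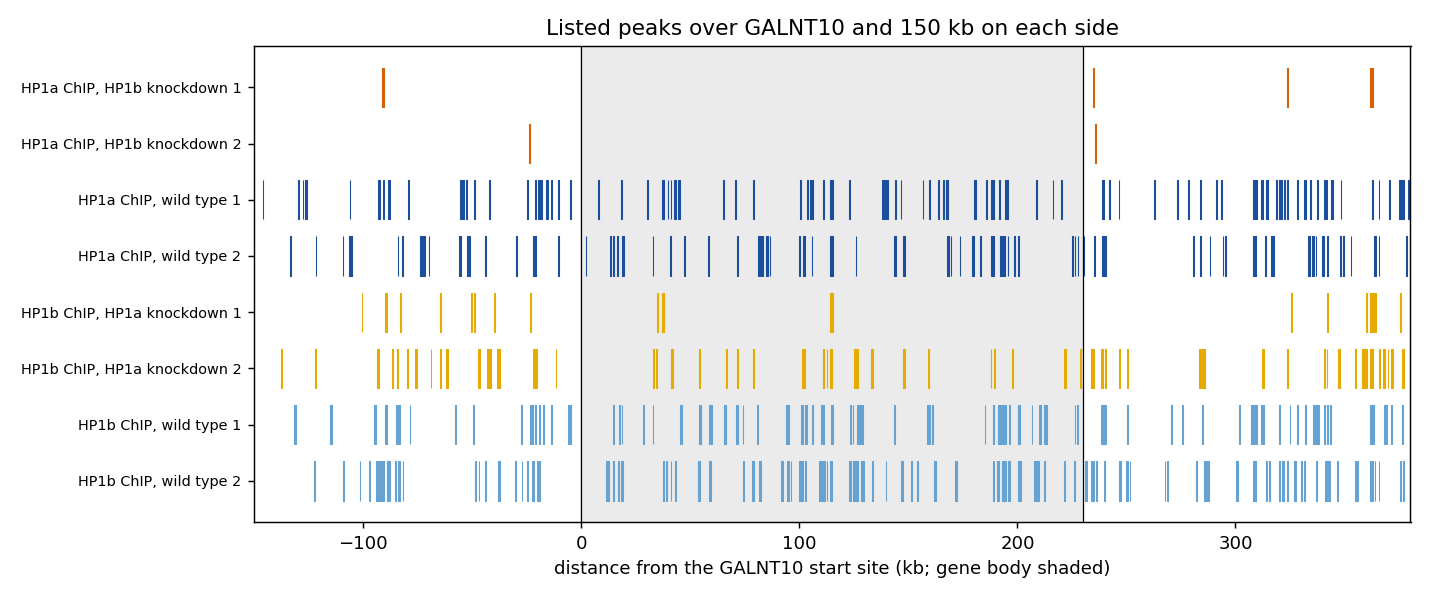
Listed peaks (bars, to scale along the horizontal axis in kb from the GALNT10 start site) in all 8 libraries, with the gene body shaded and its surroundings shown on each side. HP1a peaks of both wild-type libraries run through the gene and beyond it, while the HP1b knockdown rows are empty over the gene and hold their nearest peak 4.26 kb outside it.

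Around the genes HP1a coverage in HP1b knockdown was also below wild type. The whole knockdown lists covered 9.89 and 9.68 Mb, against 69.8 and 60.4 Mb in wild type. Low knockdown coverage was thus not particular to these surroundings. Averaged over the 10 genes, HP1a peaks covered 0.318 and 0.263% of the 100 kb on each side in HP1b knockdown, against 4.59 and 3.81% in wild type. Between 400 and 500 kb away they covered 0.345 and 0.323% in HP1b knockdown, against 3.48 and 3.78% in wild type. Over 500 kb on each side, the wild-type share was between 5.51 times (SPIDR) and 23.02 times (FGGY) the knockdown share, with a median of 12.1. Over the whole lists wild type held 6.66 times the covered bases, and at 9 of the 10 genes the ratio in the surroundings was above that. The knockdown shares behind these ratios were small, between 0.122% (FGGY) and 0.626% (SPIDR). The surroundings adjoin genes chosen at 0 in HP1b knockdown, and the ratio around other genes with wild-type HP1a was not measured. All 10 genes had HP1a peaks within 500 kb in both knockdown libraries, the nearest between 4.26 kb (GALNT10) and 127.1 kb (TENT5D) from the gene.

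**Figure D3:**
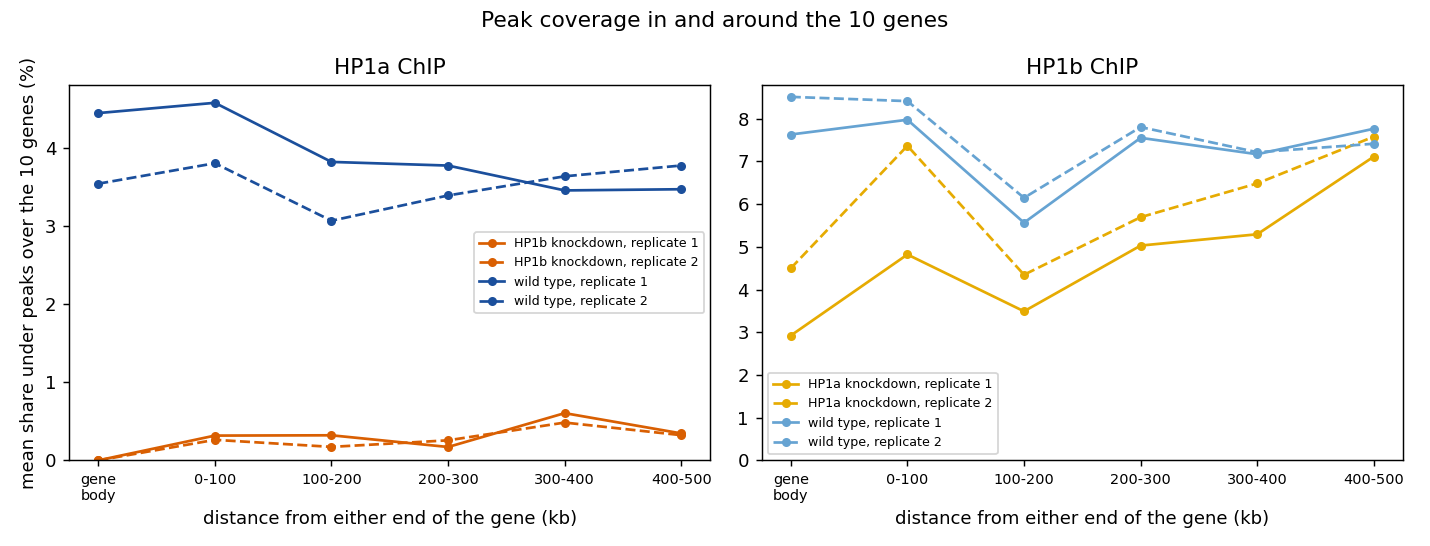
Mean share of bases under peaks (%, vertical axis) over the 10 genes, in the gene body and in 100 kb steps from either gene end, with 1 line per library. The HP1a lines of HP1b knockdown stay at or under 0.606% at every distance and those of wild type at or above 3.07%; the HP1b lines of HP1a knockdown lie below wild type in the gene body and come within reach of it at 400 to 500 kb.

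The neighbours were examined by the same criterion. There were 25 nearest or overlapping protein-coding genes, of which 12 had HP1a peaks in both wild-type libraries and 7 of these had none in HP1b knockdown. Genes that overlap the 10 share bases with them, so their listing partly follows from the choice of the 10. Among the neighbours that do not overlap, 4 of 8 (50%) met it, beside 47.0% of all genes with wild-type HP1a. The 7 were MFAP3 beside GALNT10, MED30 beside EXT1, SLC15A1 beside FARP1, MRAP2 beside CYB5R4, and the overlapping SPTLC3, ISM1 and RIPPLY2-CYB5R4. SAMD12, a large gene next to EXT1, did not meet it: HP1a covered a mean of 0.348% of it in HP1b knockdown, against 6.76% in wild type, with 2 and 4 peaks against 50 and 58. Some neighbours had no HP1a peak in any of the 4 libraries, among them the transcription factor genes JUN beside FGGY and CEBPD beside SPIDR.

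Start sites were mostly free of peaks. RefSeq promoter windows of 300 bases, from 250 before to 50 after the start, matched 8 of the 10 genes with 12 windows (build GRCh38.p14). Of these, 1 held a peak in any of the 8 libraries: the VAT1L window, in the second wild-type HP1a library alone. Over the 22132 windows of protein-coding genes, an HP1a peak was present in 0.343 and 0.330% in HP1b knockdown and in 1.79 and 1.25% in wild type. An HP1b peak was present in 1.64 and 3.08% in HP1a knockdown and in 3.18 and 3.94% in wild type. The windows of the 10 genes held between 0 and 51 CpG dinucleotides (CG on the strand given), with a median of 21.5 against 21 over all windows.

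The 3 windows below are shown because VAT1L's was the one with a peak, GALNT10's belongs to the gene with the most peaks in its fewer-peaked wild-type library, and TENT5D's lies just downstream of the strongest peak. Capitals mark bases under a listed wild-type HP1a peak, and all are on the plus strand. The VAT1L peak (chr16:77786979-77788485) was 1507 bases wide, had a fold of 2.88 and reached base 172 of the window.
VAT1L, chr16:77788314-77788613: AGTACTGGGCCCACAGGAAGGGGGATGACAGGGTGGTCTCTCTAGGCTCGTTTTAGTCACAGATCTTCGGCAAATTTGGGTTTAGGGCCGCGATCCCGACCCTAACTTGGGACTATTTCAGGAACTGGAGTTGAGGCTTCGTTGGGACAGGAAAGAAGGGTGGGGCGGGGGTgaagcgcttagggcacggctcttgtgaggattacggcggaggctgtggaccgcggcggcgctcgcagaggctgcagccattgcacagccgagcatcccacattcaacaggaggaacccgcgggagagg
GALNT10, chr5:154190483-154190782: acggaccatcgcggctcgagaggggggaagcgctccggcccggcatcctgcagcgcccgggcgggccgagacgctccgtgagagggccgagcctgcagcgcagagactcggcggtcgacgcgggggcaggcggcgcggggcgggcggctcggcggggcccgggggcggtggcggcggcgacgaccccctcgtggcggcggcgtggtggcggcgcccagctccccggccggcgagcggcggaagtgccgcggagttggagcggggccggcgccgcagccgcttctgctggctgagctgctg
TENT5D, chrX:80420197-80420496: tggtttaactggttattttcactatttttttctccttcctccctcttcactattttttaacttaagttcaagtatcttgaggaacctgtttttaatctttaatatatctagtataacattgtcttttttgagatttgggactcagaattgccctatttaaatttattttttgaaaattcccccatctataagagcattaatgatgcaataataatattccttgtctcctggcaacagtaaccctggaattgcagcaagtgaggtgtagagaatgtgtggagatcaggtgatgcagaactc
The VAT1L window had 19 CpG and 60% G and C, the GALNT10 window 51 CpG and 81.0%, and the TENT5D window 0 CpG and 33.7%. The nearest wild-type HP1a peak lay 1.97 kb from the GALNT10 start and 0.533 kb from the TENT5D start of this window, which lies inside the annotated span of TENT5D and not at its outer end.

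HP1b was listed at every one of these genes, in HP1a knockdown and in wild type. All 10 had HP1b peaks in both HP1a knockdown libraries and in both wild-type libraries, which held for 35.3% of all protein-coding genes. The 10 genes together had 161 and 269 HP1b peaks over 107.5 and 153.4 kb in HP1a knockdown, against 379 and 442 peaks over 243.3 and 286.6 kb in wild type. None lost all HP1b peaks in HP1a knockdown, while 14.2% of genes with HP1b in both wild-type libraries did. The shares of 35.3 and 14.2% are over genes of all lengths and peak numbers. The 10 are longer, with a median of 315.0 kb against 24.2 kb over all genes, and no share at like length was taken. The HP1b lists had no part in choosing the genes, so HP1b in HP1a knockdown was tested against wild type. The choice used HP1a of wild-type cells, however, and the 10 were also high in wild-type HP1b. Their median HP1b share was 7.72 and 8.36% in wild type. Over all genes with HP1a peaks in both wild-type libraries it was 4.34 and 4.62%. Whether choosing genes high in wild type favours a fall in HP1b was not tested.

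Relative HP1b coverage, the covered bases of a gene per Mb of all peak bases of the library, was fitted for 12363 genes with limma. No gene passed at an adjusted p under 0.05 in either direction (0% lower and 0% higher), while 3065 had an unadjusted p under 0.05. Of these, 2443 were lower in HP1a knockdown (19.8% of genes fitted) and 622 higher (5.03%). Among the 10 genes 6 had an unadjusted p under 0.05, all lower in HP1a knockdown: GALNT10, EXT1, FGGY, VAT1L, TASP1 and FARP1. The median log2 value of the 10 was −0.80, against −0.47 over all genes fitted and −0.39 over the 3327 fitted genes of 100 kb or more. In 7 of the 10 both HP1a knockdown libraries lay below both wild-type libraries in relative coverage, against 39.9% of genes fitted, and in none of the 10 above both, against 13.6%. By covered share, with no scaling to the library, it was 8 of the 10, against 41.8% of genes fitted. These shares of genes fitted are over all lengths, and none was taken at like length.

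GALNT10 had the lowest log2 value of the 10. HP1b peaks covered 0.907 and 5.42% of it in HP1a knockdown, against 11.5 and 14.7% in wild type, and the groups did not overlap. Its log2 value was −2.29 (SE 0.68, adjusted p 0.148 by limma, n = 2 each), and 6.49% of fitted genes had a lower one. The HP1a knockdown libraries lay far apart, with 3 and 20 peaks. The log2 value was −1.31 without the first of them and −3.28 without the second.

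EXT1 and TASP1 had lower HP1b in each HP1a knockdown library with less spread. EXT1 was covered over 1.62 and 2.14% in HP1a knockdown, against 5.88 and 8.20% in wild type (log2 −1.68, SE 0.28, adjusted p 0.141 by limma, n = 2 each). TASP1 had 2.06 and 3.54% in HP1a knockdown, against 9.25 and 7.95% in wild type (log2 −1.47, SE 0.21, adjusted p 0.141). Neither pair of groups overlapped, and neither gene passed the threshold. Of the TASP1 HP1b peaks, 14 and 30 in HP1a knockdown, against 45 and 33 in wild type, lay outside SPTLC3 and ISM1, so the groups were closer there.

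VAT1L and FARP1 also had lower values in each HP1a knockdown library. VAT1L was covered over 1.56 and 6.15% in HP1a knockdown, against 9.50 and 13.8% in wild type (log2 −1.66, SE 0.54, adjusted p 0.162). FARP1 was covered over 2.74 and 4.61% in HP1a knockdown, against 6.88 and 8.52% in wild type (log2 −0.92, SE 0.24, adjusted p 0.141). Both had groups that did not overlap, and by covered share both had the wider gap between libraries in HP1a knockdown. In relative coverage, which was fitted, FARP1 had 72.3 and 87.4 in HP1a knockdown, against 136.0 and 169.6 in wild type. Its gap was not wider in HP1a knockdown on that measure. For VAT1L the log2 value was −0.95 without the first HP1a knockdown library and −2.37 without the second.

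FGGY and SPIDR had log2 values nearer 0. FGGY had 4.21 and 5.71% in HP1a knockdown, against 7.21 and 9.41% in wild type (log2 −0.57, SE 0.21, adjusted p 0.195). SPIDR had 6.10 and 6.64% in HP1a knockdown, against 8.22 and 11.7% in wild type (log2 −0.45, SE 0.26, adjusted p 0.354). The median of all genes fitted lay between them at −0.47, and the groups did not overlap at either gene.

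At TENT5D, MARCHF1 and CYB5R4 the groups overlapped or nearly touched. TENT5D had 6.04 and 5.91% in HP1a knockdown, against 9.30 and 6.06% in wild type (log2 −0.15, 95% interval −1.08 to 0.78). MARCHF1 had 2.42 and 2.54% in HP1a knockdown, against 2.24 and 2.64% in wild type (log2 0.20, 95% interval −0.42 to 0.82), and was the one gene of the 10 with a log2 value above 0. CYB5R4 had 1.58 and 2.30% in HP1a knockdown, against 6.30 and 2.09% in wild type (log2 −0.69, 95% interval −2.29 to 0.91). These intervals leave changes of more than a log2 unit possible at TENT5D and CYB5R4.

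**Figure D4:**
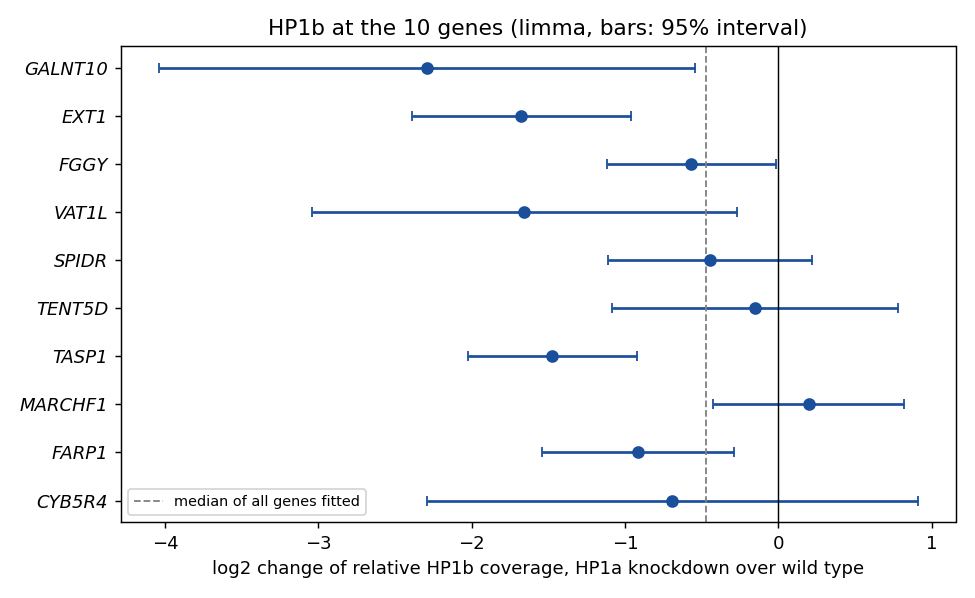
Log2 change of relative HP1b coverage, HP1a knockdown over wild type (horizontal axis), at the 10 genes; points are limma estimates and bars their 95% intervals, unadjusted. The points run from −2.29 at GALNT10 to 0.20 at MARCHF1, and the dashed line marks the median of all genes fitted, −0.47.

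HP1b around the genes was compared in the same steps, with no test. In the gene bodies the mean HP1b share was 2.92 and 4.50% in HP1a knockdown, against 7.63 and 8.51% in wild type. Within 100 kb of the genes it was 4.82 and 7.37% in HP1a knockdown, against 7.98 and 8.41% in wild type. Between 400 and 500 kb away it was 7.11 and 7.58% in HP1a knockdown, against 7.77 and 7.41% in wild type, where the groups overlapped.

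At the wild-type HP1a peaks themselves, each HP1a knockdown library met fewer with HP1b than each wild-type library did. Of the 248 HP1a peaks of the first wild-type library in the 10 genes, 36 and 57 (14.5 and 22.98%) were met by HP1b peaks of the HP1a knockdown libraries, against 79 and 101 (31.9 and 40.7%) in wild type. Of the 231 peaks of the second library, 29 and 51 (12.6 and 22.1%) were met in HP1a knockdown, against 74 and 90 (32.0 and 39.0%) in wild type. Over the HP1a peaks of all protein-coding genes the shares for the first library were 18.3 and 27.0% in HP1a knockdown and 29.2 and 31.1% in wild type. The HP1a knockdown lists differ in length, and the first, which is shorter, met fewer peaks. With the same number of top peaks taken from every library the means were 23.1% in HP1a knockdown and 31.4% in wild type, against 18.0% in HP1a knockdown and 35.9% in wild type with all peaks. With −log10 q of at least 2 in every list the means were 9.03% in HP1a knockdown and 4.89% in wild type. Only 31 and 15 wild-type HP1a peaks of the 10 genes were left there. HP1b peaks in these genes then numbered 18 and 64 in HP1a knockdown, against 15 and 29 in wild type. The turned order of the groups thus rests on few peaks.

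HP1b covered more of the bases under HP1a peaks than of the rest of each gene. Under the wild-type HP1a peaks of the 10 genes, 227.5 kb in all, HP1b covered 9.07 and 13.1% in HP1a knockdown, against 21.4 and 25.04% in wild type. In the rest of those genes it covered 2.57 and 3.66% in HP1a knockdown, against 5.76 and 6.80% in wild type. The ratio between the bases under HP1a peaks and the rest was 3.53 and 3.57 in HP1a knockdown and 3.72 and 3.68 in wild type. Over all genes with HP1a in both wild-type libraries it was 4.98 and 4.66 in HP1a knockdown and 4.997 and 5.26 in wild type. In each of the 4 HP1b libraries all 10 genes had the higher share under HP1a peaks.

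The genes varied in how much HP1b lay under their HP1a peaks. TENT5D had 36.4 and 33.3% in HP1a knockdown, against 56.7 and 31.6% in wild type. TASP1 had 2.78 and 3.94% in HP1a knockdown, close to the 2.02 and 3.52% of the rest of the gene, against 29.5 and 19.9% in wild type. SPIDR had 18.5 and 18.2% in HP1a knockdown, against 31.2 and 33.2% in wild type. FARP1 had 16.4 and 17.0% in HP1a knockdown, against 12.8 and 14.7% in wild type, and was the one gene with both HP1a knockdown libraries above both wild-type libraries.

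**Figure D5:**
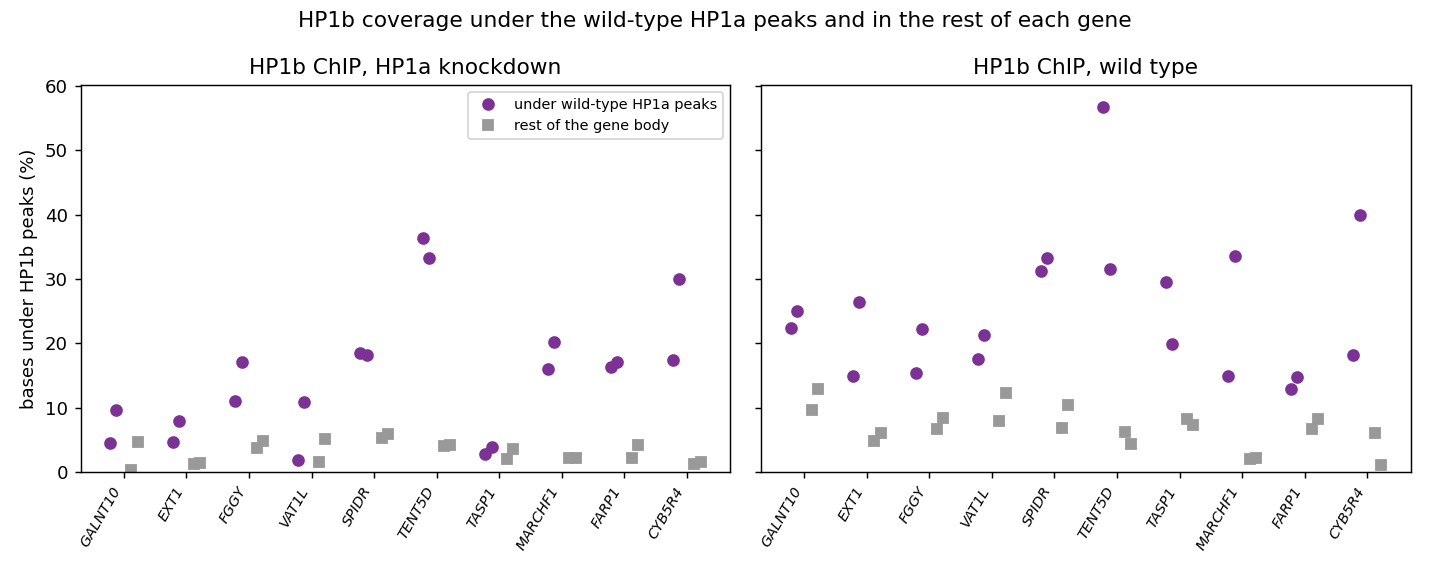
Bases under HP1b peaks (%, vertical axis) within the wild-type HP1a peaks of each gene (circles) and in the rest of its body (squares); each mark is a library. Circles lie above squares for all 10 genes in each of the 4 libraries, with the smallest gap at TASP1 and VAT1L in HP1a knockdown.

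The 43 regions found in both wild-type HP1a libraries carried HP1b at some sites and not at others. HP1b peaks met 11 and 17 of them in HP1a knockdown, against 22 and 21 in wild type, and 6 were met in all 4 libraries. At SPIDR a region of 1754 bases (chromosome 8, 47335652 to 47337405) had HP1a folds of 3.96 and 3.65 in wild type. Its HP1b folds were 3.43 and 3.35 in HP1a knockdown and 4.07 and 3.72 in wild type. At TENT5D the single shared region (chrX:80428331-80430412) had HP1b folds of 2.90 and 2.89 in HP1a knockdown and 3.09 and 3.26 in wild type. By contrast, the strongest shared region of GALNT10 (chr5:154208913-154210248) had HP1b folds of 2.66 and 2.66 in wild type and no HP1b peak in HP1a knockdown. In GALNT10, 3 of the 9 shared regions had HP1b in both wild-type libraries and in neither HP1a knockdown library.

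Relatives of the 10 genes were read against the same criterion. The list held 66 relatives and partners, of which 41 had HP1a peaks in both wild-type libraries and 16 of these had none in HP1b knockdown (39.0%, against 47.0% of all genes with wild-type HP1a). Of 15 GalNAc transferase genes with wild-type HP1a, GALNT1 and GALNT6 did, with means of 3.17 and 0.965% covered in wild type. GALNT17 did not, having 40 and 47 HP1a peaks in HP1b knockdown, against 75 and 80 in wild type. Of 4 exostosin genes EXTL1, EXTL2 and EXTL3 met it, and EXT2 did not, with 2 and 0 peaks in HP1b knockdown, against 9 and 7 in wild type. BLM, a helicase gene of the recombination pathway, met it too, with 5 and 3 wild-type peaks and a mean share of 1.71%. So did CYB5R1, whose mean wild-type share of 8.36% came from 1 peak in each library. For HP1b, 57 of the relatives were fitted and none passed, with a lowest adjusted p of 0.141 by limma.

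Beyond the 10, the genes with the most similar profile over the 8 libraries were C1orf21 on chromosome 1, the RNA demethylase gene FTO on chromosome 16 and LIMCH1 on chromosome 4. Likeness was the Euclidean distance from the median log2 profile of the 10, which was 0.42, 0.52 and 0.64 for them. The 10 themselves lay farther from that median, between 1.19 (EXT1) and 6.41 (CYB5R4), so it is not a profile they share. Relative coverage is not divided by gene length, so length enters this likeness. C1orf21 was listed at 0 for HP1a in HP1b knockdown, against 5.42 and 5.39% in wild type. Just outside the criterion, with a mean wild-type share at or above the lowest of the 10, were ATP6V1H and ZNF626. ATP6V1H had HP1a over 0 and 0.0235% in HP1b knockdown, against 1.23 and 1.48% in wild type, and the zinc finger gene ZNF626 had 0 and 0.0240% against 6.12 and 4.21%. The lowest wild-type share among the 10 was that of MARCHF1, 0.934 and 0.863%. The knocked-down genes carried little HP1a: CBX1 was listed at 0 in HP1b knockdown, against 1.64 and 0% in wild type, and CBX5 had 0.362 and 0% against 1.18 and 0%.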

How the data were processed

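ChIP-seq peak lists of HP1a and HP1b from MCF10A cells were used, 8 libraries in 4 groups of 2. Per the submitters' processing notes, the tools were MACS3, Bowtie2, Trimmomatic and SAMtools, on build hg38. Their versions and settings, and whether an input was used, were not given in the sources used here. Each library has its own list, and the deposited columns give for each broad peak a score of 10 times its −log10 q, its fold as a ratio over local background, its −log10 p and its −log10 q.

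Chromosomes 1 to 22 and X were kept, and overlapping peaks of a list were merged when bases were counted. Gene bounds came from RefSeq on GRCh38.p14. Listing counted peaks in the gene body or within 1 kb; covered share used the gene body. HP1b relative coverage was fitted as log2 of covered bases per Mb of peak bases plus 2.16, the 10th percentile of values above 0, for genes where 2 or more of the 4 libraries had a peak (limma 3.58.1 in R 4.3.3, variance trend, Benjamini-Hochberg, threshold 0.05, two-sided). The script was tested on simulated data. An exact permutation test of 2 against 2 libraries cannot go below 0.333 and was not used.

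The members and lists were chosen with earlier results of these data known. Named genes were the 10, their nearest and overlapping neighbours, relatives from a fixed list where they met the criterion (at most 8), the 3 of most similar profile, the 2 just outside the criterion, CBX1 and CBX5; GALNT17, EXT2 and SAMD12 were added after their values were seen. Replicate numbers were not stated to pair libraries, and the deviations of same-numbered HP1b libraries correlated at 0.05.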

Additional observations from a re-analysis of the deposited data

How the results depend on the processing

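All 10 genes met the HP1a criterion under every alternative tried except −log10 q of at least 2 (9). The genes were chosen at 0 in HP1b knockdown, so only listing peaks within 2 kb of a gene could add a knockdown peak. Under the rest a gene could fail the criterion only by losing wild-type peaks. Of the genes with a peak in both wild-type libraries under each setting, 47.05% met it as reported (of 7945), 21.78% with the same number of top peaks (of 1956), 92.57% (of 1104) with −log10 q of at least 2, and between 53.25 and 64.14% with a library left out. All 10 had HP1b in every library, and 5 did with −log10 q of at least 2. HP1b peaks met 18.03% of the members' HP1a peaks in HP1a knockdown and 35.89% in wild type (means). Taking the same number of top peaks gave 23.06 and 31.38%. Keeping peaks of −log10 p at least 4 gave 9.04 and 11.3%, and an overlap of at least 50% gave 11.6 and 23.7%. Keeping peaks of −log10 q at least 2 gave 9.03 and 4.89%, an opposite order that rests on 31 and 15 HP1a peaks. Leaving out a library gave 13.54 to 22.53% and 31.94 to 39.84%.

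The count of genes past the HP1b threshold, 0 lower and 0 higher, depended on the model: 281 and 121 with a replicate block, 189 and 66 with all 8 libraries in one fit, 1 and 10 with the same number of top peaks, and 0 and 7 without the filter. Leaving out a library gave 75 to 1753 lower and 72 to 257 higher (620 and 210 without the first HP1a knockdown library, 1753 and 257 without the second, 124 and 75 without the first wild-type library, 75 and 72 without the second), with the lone library assumed to vary like the others; the cause was not tested. The median log2 of the members was −1.11 with the same number of top peaks, −1.04 with −log10 p of at least 4, and −1.07 to −0.73 with a library left out. GALNT10, EXT1, VAT1L and TASP1 passed with the replicate block, and the deviations of same-numbered libraries did not establish a pairing. TASP1 changed sign with −log10 q of at least 2 (0.017). With a library left out GALNT10 ran from −3.28 to −1.31, VAT1L from −2.37 to −0.95, TENT5D ran from −0.44 to 0.14, CYB5R4 from −1.42 to 0.033 and MARCHF1 from −0.00036 to 0.40. The lists hold no read counts, so depth sets an unknown limit.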

Other observations

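The other genes that had at least 20 HP1a peaks in each wild-type library and were listed at 0 in both HP1b knockdown libraries numbered 11. They were chosen here after their values were seen and get no test of HP1a. They included LDLRAD3, NHSL2, AIG1, FTO, the lipid-binding gene OSBPL10, the transporter gene ABCC4 and SYNE2, which encodes a protein of the nuclear envelope. LDLRAD3 had 11 and 11 HP1b peaks in HP1a knockdown, against 53 and 49 in wild type (log2 −2.47, adjusted p 0.141 by limma, n = 2 each). NHSL2 had 5 and 22 in HP1a knockdown, against 37 and 44 in wild type (log2 −2.03, adjusted p 0.141). SYNE2 had 13 and 28 in HP1a knockdown, against 31 and 41 in wild type (log2 −0.37, adjusted p 0.529). PAPPA2, like MARCHF1, had a log2 value above 0: its HP1b peaks numbered 8 and 30 in HP1a knockdown, against 18 and 26 in wild type (log2 0.20, adjusted p 0.824).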
